A study of Mus musculus with 6 samples.

Results

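Granule neurons are the principal cells of the dentate gyrus, and 9 genes used as their markers were followed across a hippocampal RNA-seq series: Prox1, Dsp, C1ql2, Tdo2, Trpc6, Plk5, Calb1, Pdzd2 and Il16. They were taken by gene symbol from a table of 31838 genes, in which each symbol had 1 row, and all 9 were among the 20428 genes with enough counts to be tested. Polyadenylated RNA came from the hippocampus of wild type C57BL/6 mice aged 4 months. The 3 control libraries came from mice given corn oil, and the other 3 from mice dosed at 50 mg/kg/day with the plasticiser butyl benzyl phthalate (BBP). Nothing in the labels ties a library to its own animal. The spread behind each p-value is that between libraries and may be technical. Libraries are named by group and number, and the numbers only tell them apart.

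The dentate gyrus is the entry station of the hippocampal circuit. Its granule neurons receive input from the entorhinal cortex and send axons, the mossy fibres, to CA3 pyramidal neurons and to the mossy cells of the hilus. Granule neurons are packed into a narrow layer, so the amount of their RNA in a sample of whole hippocampus depends on how much of that layer was taken. In such bulk tissue, fewer cells of a type and less RNA per cell cannot be told apart.

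Shown first are 4 members that were lowest in the same 2 libraries (chosen after their values were seen). They did not all share a highest library, and their upstream sequences differ. Each is given by the 250 bases upstream of a RefSeq transcription start, in GRCm38.p6, the assembly of the mm10 build. Tdo2 was lowest in the same 2 libraries and is not shown. Capitals mark CAGATG or its reverse complement CATCTG, the E-box form bound by NEUROD factors. The windows are chr1:190170828-190171077 on the minus strand for Prox1, chr7:83735540-83735789 on the minus strand for Il16, chr1:120340332-120340581 on the plus strand for C1ql2 and chr13:38151044-38151293 on the plus strand for Dsp.
Prox1: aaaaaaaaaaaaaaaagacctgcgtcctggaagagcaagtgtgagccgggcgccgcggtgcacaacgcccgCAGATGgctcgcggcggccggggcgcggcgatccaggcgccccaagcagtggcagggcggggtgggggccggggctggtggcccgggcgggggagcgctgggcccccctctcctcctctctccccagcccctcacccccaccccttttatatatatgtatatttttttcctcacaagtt
Il16: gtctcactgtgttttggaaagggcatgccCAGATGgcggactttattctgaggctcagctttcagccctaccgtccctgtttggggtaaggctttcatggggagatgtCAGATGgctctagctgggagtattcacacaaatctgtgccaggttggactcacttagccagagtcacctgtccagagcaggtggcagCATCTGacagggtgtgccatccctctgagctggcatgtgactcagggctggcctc
C1ql2: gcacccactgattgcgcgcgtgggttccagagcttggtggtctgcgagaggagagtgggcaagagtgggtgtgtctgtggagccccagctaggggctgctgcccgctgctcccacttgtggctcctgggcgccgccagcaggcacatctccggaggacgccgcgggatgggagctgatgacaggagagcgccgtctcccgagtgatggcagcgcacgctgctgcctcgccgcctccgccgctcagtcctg
Dsp: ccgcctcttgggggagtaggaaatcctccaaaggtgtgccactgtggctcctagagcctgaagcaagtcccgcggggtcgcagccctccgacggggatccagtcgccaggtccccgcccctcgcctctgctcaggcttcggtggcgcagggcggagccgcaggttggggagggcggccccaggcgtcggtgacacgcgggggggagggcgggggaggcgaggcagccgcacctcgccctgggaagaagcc

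The Il16 window shown holds the E-box at 3 places, the Prox1 window shown at 1, and those of C1ql2 and Dsp at 0. RefSeq gives more than 1 start for some genes, and the windows shown are those with the most E-boxes: the other Prox1 window holds 0, and the other 2 of Il16 hold 1 and 0. Across the RefSeq table, which lists 8 of the 9 members (not Calb1), 3 of 11 member windows held it, against 14.4% of all 32851 windows of that length. The other motifs were searched on both strands. The GC box (GGGCGG) was in 5 of 11 member windows, against 32.7% of all windows. These belonged to 4 of the 8 members (Dsp, Pdzd2, Plk5 and Prox1). TATAAA was found in 2 of 11 member windows, of Prox1 and Tdo2 (12.4% of all windows), and the AP-1 motif TGANTCA in 1, of Il16 (6.75%). The CRE TGACGTCA (1.55%) and the MEF2 motif (3.20%) were found for no member. GC content was 72.4% for Dsp, 68.8% for C1ql2, 64.8% for Prox1 and 55.2% for Il16, with a median of 52.4% over all windows. The E-box is thus in windows of 2 of the 4 genes shown, and of 2 of the 8 members listed. The Tdo2 window, not shown, holds 0. A match is a run of letters and not a measured binding site.

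All 6 libraries were of like depth, with summed deposited counts of 62477604 to 68422361, and the low counts point to some 4 counts for each sequenced fragment. BBP library 1 stood apart from the other 5 by the markers of neighbouring regions. There the summed FPKM (fragment number scaled for gene length and library size) of 15 striatal medium spiny neuron markers was 226, against 83.1 to 125 in the other 5, and that of 14 isocortex markers was 177, against 85.1 to 108. Corn oil library 3 stood apart by 7 choroid plexus markers, with a summed FPKM of 374, against 49.4 to 120 in the other 5. BBP library 2 had a trimmed mean of M-values (TMM) scaling factor of 0.948, against 1.01 in each of the others. Results that rest on BBP library 1 are given with and without it.

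The members fell into a set that varied widely between libraries and a set that varied little. Prox1, Dsp, Il16, C1ql2 and Tdo2 differed 2.66-fold to 4.48-fold between their highest and lowest library, while Trpc6, Plk5, Calb1 and Pdzd2 differed 1.26-fold to 1.48-fold. This division was made after the values were seen and is a description. All of the wide set were lowest in BBP library 1 and next lowest in corn oil library 3, so their variation crossed the treatment groups. Over all tested genes, 5.97% had these 2 libraries in that order at the bottom in FPKM and 7.27% in TMM-scaled counts (log2 CPM). These shares cover genes of any range, while the wide set was grouped by its large range, so they are not like for like.

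Prox1 encodes the homeodomain transcription factor that sets and maintains granule neuron identity (mm10 chromosome 1, 190118035 to 190170714). Its FPKM was 7.67, 8.69 and 5.32 in corn oil libraries 1 to 3 and 3.71, 10.8 and 9.31 in BBP libraries 1 to 3. The BBP group held both the lowest and the highest library, so the groups overlapped. The corn oil mean was 7.23 ± 1.73 and the BBP mean 7.95 ± 3.75 (SD, n = 3 each). In BBP library 1 Prox1 stood at 0.513 of the corn oil mean.

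Dsp encodes desmoplakin, the protein that ties desmosomes to intermediate filaments (chromosome 13, 38151294 to 38198577). It had 3.40, 3.61 and 2.08 FPKM in corn oil and 0.896, 3.86 and 4.02 in BBP. This was the widest range of any member, 4.48-fold, and BBP library 1 reached only 0.296 of the corn oil mean. BBP libraries 2 and 3 both lay above all corn oil libraries, while BBP library 1 lay below them. Il16 encodes interleukin-16, of which neurons make a long form with several PDZ domains (chromosome 7, 83642825 to 83745726). Its FPKM was 3.21, 3.40 and 2.04 in corn oil and 0.948, 3.42 and 3.47 in BBP. It repeated the pattern of Dsp closely, with BBP library 1 at 0.329 of the corn oil mean.

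C1ql2 encodes a secreted C1q-like protein that mossy fibres release at their synapses, where it binds kainate-type glutamate receptors (chromosome 1, 120340582 to 120343174). It had 22.8, 26.6 and 15.7 FPKM in corn oil and 9.89, 26.2 and 23.8 in BBP. Again BBP library 1 and corn oil library 3 were the low ones, at 0.456 of the corn oil mean and at 0.636 of the mean of the other corn oil libraries. Tdo2 encodes tryptophan 2,3-dioxygenase, which opens the indole ring of tryptophan at the start of the kynurenine pathway (chromosome 3, 81957090 to 81976202). Its FPKM was 1.28, 1.51 and 0.812 in corn oil and 0.598, 1.59 and 1.19 in BBP. It was the member with the fewest counts, and its lowest library had 165, or about 41 fragments at the assumed 4 counts each (95% Poisson interval 29.4 to 55.6, counting error only). The highest library had 434 counts, or about 108 fragments (88.6 to 130), so the difference between these libraries exceeded the counting error.

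Trpc6 encodes a cation channel opened by diacylglycerol (chromosome 9, 8544142 to 8680741). It shared the 2 low libraries of the wide set, by a smaller margin: FPKM was 3.14, 3.41 and 2.39 in corn oil and 2.46, 3.29 and 3.26 in BBP. Corn oil library 3 and BBP library 1 were the lowest, and BBP library 1 stayed at 0.826 of the corn oil mean. The spread within each group exceeded the distance between the group means, 2.98 ± 0.530 and 3.00 ± 0.470 (SD, n = 3).

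None of the other members was low in both libraries that were low for Prox1. On the TMM-scaled counts Plk5 and Calb1 were lowest in BBP library 1, as was Prox1, while Pdzd2 was lowest in corn oil library 3. Calb1 encodes calbindin, a calcium buffer that CA1 pyramidal neurons, interneurons, striatum and cortex also contain (chromosome 4, 15881264 to 15908064). It had 29.8, 26.3 and 30.3 FPKM in corn oil and 24.1, 24.0 and 28.6 in BBP, so that corn oil library 3, low for Prox1, was the highest here. Plk5 encodes a polo-like kinase of differentiated neurons with a truncated kinase domain (chromosome 10, 80356459 to 80365489). Its FPKM was 8.75, 7.74 and 9.97 in corn oil and 6.74, 7.65 and 7.36 in BBP. All BBP values lay below all corn oil values in FPKM, but on the TMM-scaled counts the groups overlapped. Pdzd2 encodes a large protein with several PDZ domains (chromosome 15, 12359711 to 12739924). It had 2.25, 2.30 and 2.08 FPKM in corn oil and 2.74, 2.67 and 2.55 in BBP. Pdzd2 was higher in every BBP library than in every corn oil library on both scales. In FPKM, BBP library 1, the lowest for Prox1, was the highest for Pdzd2. On the TMM-scaled counts BBP library 2 was the highest for both genes.

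**Figure D1:**
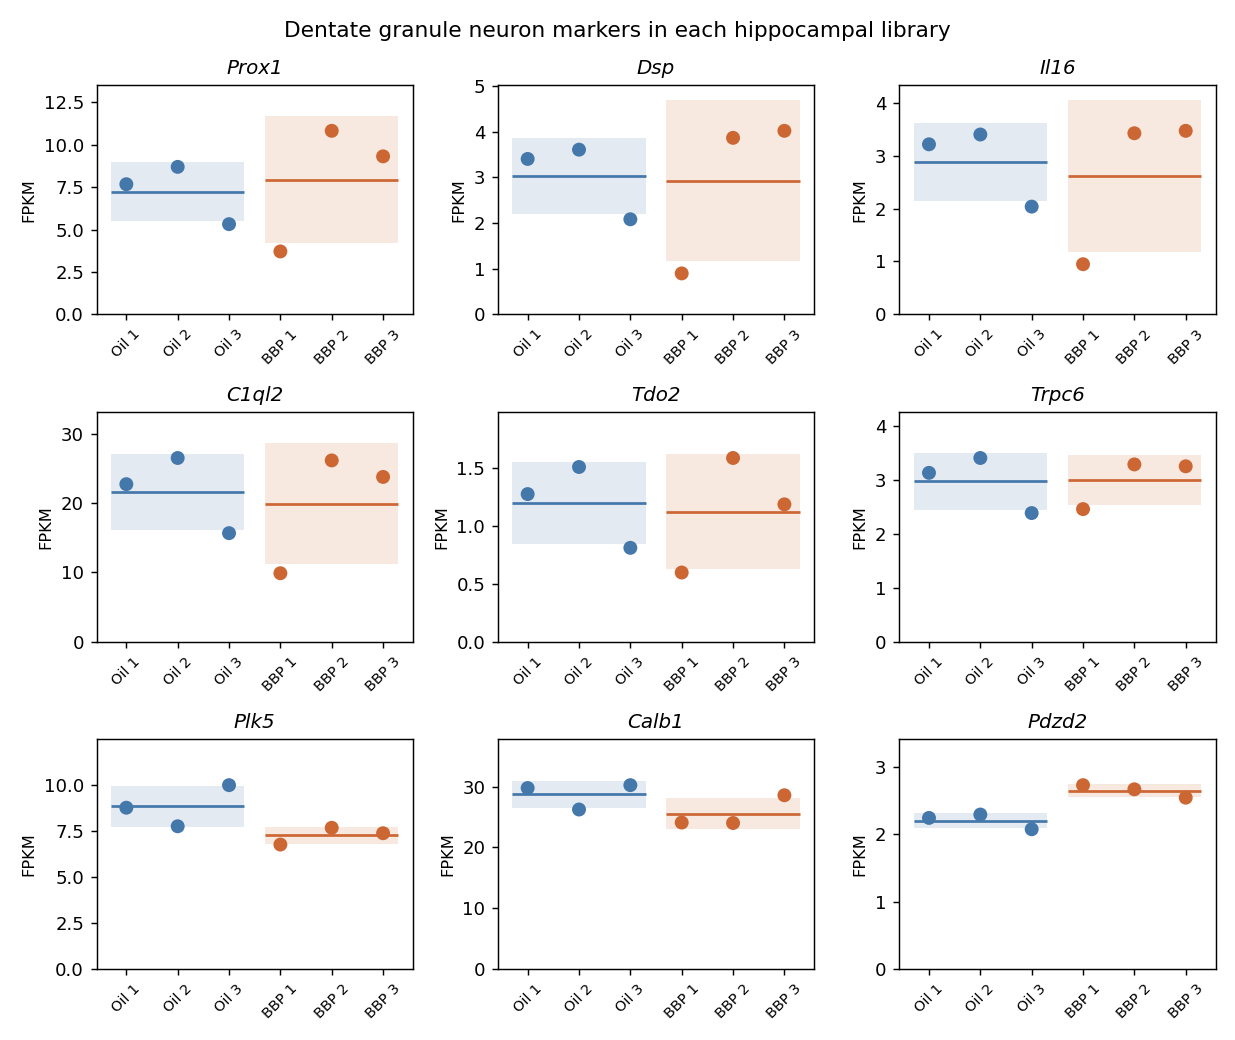
FPKM (vertical axis, from 0) of the 9 marker genes in each library, with corn oil in blue and BBP in orange; lines are group means and bands ± 1 SD over 3 libraries. Prox1, Dsp, Il16, C1ql2 and Tdo2 are lowest in BBP library 1 and next lowest in corn oil library 3, whereas Pdzd2 is highest in BBP library 1.

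By the length-corrected level, Calb1 was the highest member, with a mean of 27.2 ± 2.78 FPKM (SD, n = 6 libraries), and C1ql2 followed at 20.8 ± 6.65. Calb1 exceeded C1ql2 in 4 of 6 libraries only. Plk5 at 8.03 and Prox1 at 7.59 came next, in either order in 3 libraries each. Trpc6, Dsp, Il16 and Pdzd2 had means of 2.99, 2.98, 2.75 and 2.43, and no neighbouring pair among these kept its order in all 6 libraries. Tdo2, at 1.16 ± 0.390, was below Pdzd2 in all 6.

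The level of 2 members relative to each other was steadiest for Dsp and Il16, whose FPKM ratio stayed between 0.946 and 1.16 in all libraries. Among the 36 pairs of members, this pair had the smallest SD of the log2 ratio over the 6 libraries, 0.10. The ratio of Prox1 to C1ql2 ran from 0.327 to 0.413 (SD 0.13), and that of C1ql2 to Tdo2 from 16.5 to 20.0 (SD 0.13). These ratios changed little while the levels themselves changed 2.66-fold to 4.48-fold. Not every ratio within the wide set was steady: Prox1 over Dsp was 2.25 in corn oil library 1 and 4.14 in BBP library 1, where Dsp was lower relative to Prox1 than in any other library. Plk5 and Calb1 had the second steadiest ratio, 0.257 to 0.329 (SD 0.13). Dsp against Pdzd2 had the least steady one, from 0.328 in BBP library 1 to 1.58 in BBP library 3 (SD 0.84).

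The comparison of BBP with corn oil asks how the treated hippocampus differs from the control, and no member passed it. In edgeR's quasi-likelihood test with Benjamini-Hochberg adjustment, 0 of 20428 genes (0%) had an adjusted p under 0.05. Before adjustment 685 genes had p under 0.05, which is 3.35% of those tested, and 1 of the 9 members, Pdzd2. DESeq2 called 3 genes (Vcp-rs, Gm2004 and Gm2274, named after their values were seen), limma on FPKM called 0, and neither called a member. Of the members, 6 had a negative log2 fold change and 3 a positive one, with a median of -0.06, while 47.6% of all tested genes were negative, with a median of 0.01.

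Pdzd2 had a log2 fold change of 0.29 ± 0.09 (SE), with a 95% interval of 0.08 to 0.49, and an adjusted p of 0.953 in edgeR. It was higher in 3 of 3 BBP libraries. Groups that do not overlap in FPKM were found for 9.65% of all tested genes, and for 2 of the 9 members, Pdzd2 and Plk5. On the TMM-scaled counts the share was 10.4%, and Pdzd2 remained as the 1 member. Plk5 had -0.26 ± 0.13 and Calb1 -0.15 ± 0.10, each also with an adjusted p of 0.953 in edgeR. The interval of Calb1 ran from -0.37 to 0.07 and that of Trpc6, at 0.04 ± 0.18, from -0.38 to 0.45. Since these members were grouped by their small range, the width of their intervals follows from that choice.

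For the wide set, grouped by its large range, the intervals were wide by the same choice. Dsp had a log2 fold change of -0.02 ± 0.49 (SE) with an interval from -1.15 to 1.11, and Il16 -0.11 ± 0.44 with an interval from -1.12 to 0.91. C1ql2 had -0.09 ± 0.35, Tdo2 -0.06 ± 0.38 and Prox1 0.17 ± 0.37. Their adjusted p-values in edgeR ran from 0.976 to 0.998. A fold change near 0 here joins a very low BBP library 1 with BBP libraries 2 and 3 that were mostly above the corn oil mean.

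Without BBP library 1, the log2 fold change was 0.52 ± 0.20 (SE) for Prox1, 0.42 ± 0.21 for Dsp, 0.29 ± 0.20 for Il16, 0.25 ± 0.20 for C1ql2 and 0.25 ± 0.29 for Tdo2. Dsp, Il16, C1ql2 and Tdo2 thus changed sign, and the median of the 9 members moved from -0.06 to 0.25, where 49% of all tested genes were negative. Prox1 then had an unadjusted p of 0.0292 and Pdzd2 of 0.0211 in edgeR, each with an adjusted p of 0.700. These were the 2 members with an unadjusted p under 0.05, as had 1475 of the 21072 genes of that fit. After adjustment no member passed. In that fit Pdzd2 had 0.28 ± 0.10, close to its value with all libraries, and Plk5 and Calb1 had -0.19 ± 0.13 and -0.10 ± 0.10. Without corn oil library 3, the low control library, the Prox1 value was -0.01 and the median of the members -0.16.

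**Figure D2:**
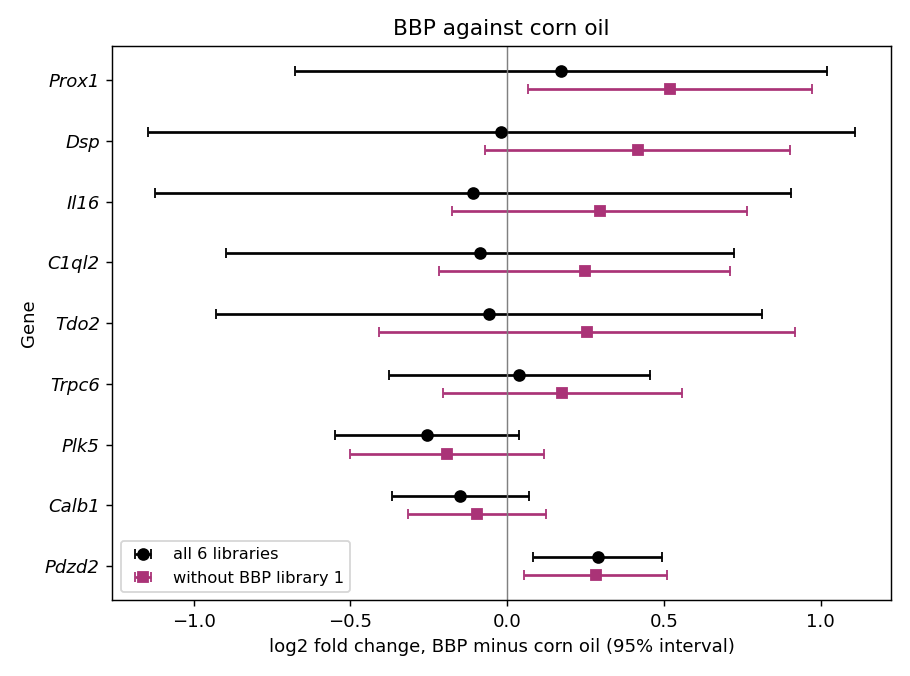
Log2 fold change of each marker gene, BBP minus corn oil, with its 95% interval from edgeR, in all 6 libraries (black circles) and without BBP library 1 (purple squares). The intervals of Dsp and Il16 reach at least to 0.91 upward and to -1.12 downward with all libraries, and the point of Dsp moves from -0.02 to 0.42 when BBP library 1 is left out, while Pdzd2 stays near 0.29.

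Another 10 genes reported as enriched in granule neurons showed the same pair of low libraries for some members. Lct, the lactase gene, had 5.39, 5.36 and 2.68 FPKM in corn oil and 1.69, 5.65 and 5.82 in BBP, the pattern of Dsp. Glis3, a zinc-finger factor gene, had 1.37, 1.34 and 1.10 in corn oil and 0.661, 1.70 and 1.32 in BBP, and Dock10, a guanine nucleotide exchange factor gene, ranged from 2.40 in BBP library 1 to 4.00 in BBP library 3. Of these 10 genes, 7 were lowest in BBP library 1, against 17.7% of all tested genes and 6 of the 9 markers. In log2 CPM 7 of the 9 markers were lowest there, against 20.3% of all tested genes.

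Not all genes of that list followed this order. Akap7, a kinase-anchoring protein gene, stayed between 6.27 and 6.90 FPKM in all libraries. Its BBP values all lay above its corn oil values. Groups that do not overlap in FPKM were found for 9.65% of all tested genes. Sema5b, a semaphorin gene, was highest in BBP library 1 at 2.63 FPKM. Fam163b had the same 2 low libraries by a smaller margin, with 38.0 FPKM in BBP library 1 and 41.4 in corn oil library 3, and BBP library 2 was high at 68.1. In the test of BBP against corn oil, 0 of the 10 passed, 7 were positive and 3 negative, with a median log2 fold change of 0.04.

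**Figure D3:**
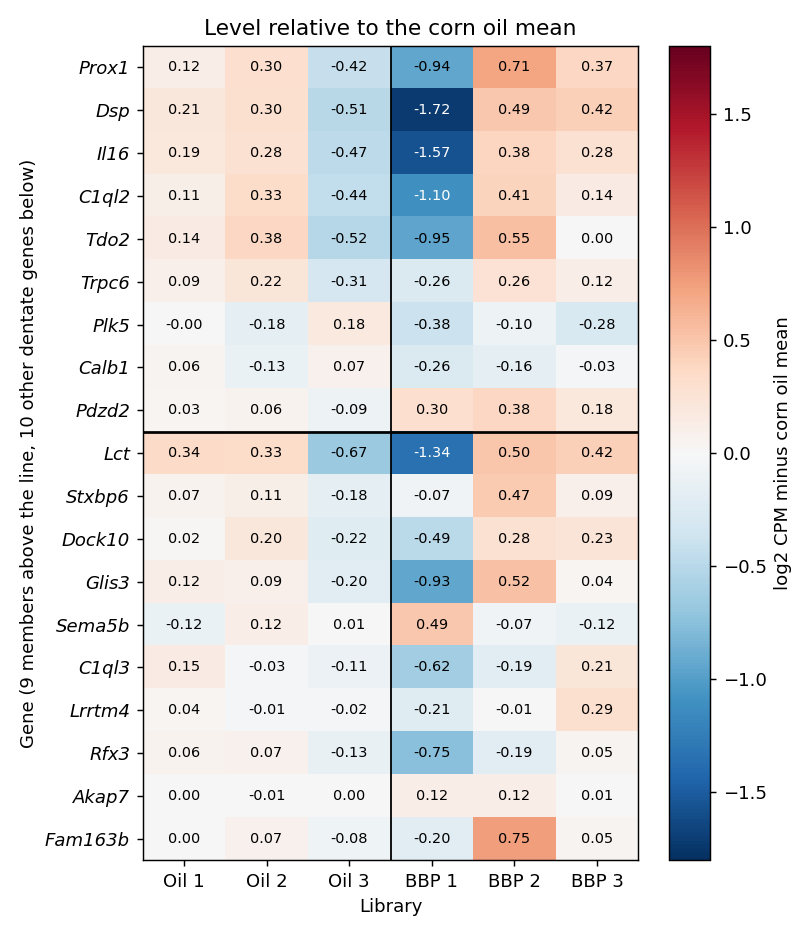
Log2 CPM of each gene minus its corn oil mean, by library, for the 9 marker genes (above the line) and 10 other granule neuron genes (below it), with blue for lower and red for higher. Dsp at -1.72, Il16 at -1.57 and Lct at -1.34 in BBP library 1 are the lowest cells, and the same genes stand at -0.51, -0.47 and -0.67 in corn oil library 3.

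The level of the markers was then set beside that of other hippocampal cells and neighbouring regions in the same library. As the median over members of log2 CPM minus the corn oil mean, the 9 markers stood at 0.11, 0.28 and -0.42 in corn oil libraries 1 to 3. In BBP libraries 1 to 3 they stood at -0.94, 0.38 and 0.14. The 10 other granule neuron genes moved less, at -0.35 in BBP library 1 and -0.12 in corn oil library 3. In BBP library 1 the hippocampal pyramidal neurons were low as well, at -0.75 for 10 CA1 markers and -0.82 for 13 CA2 and CA3 markers. In corn oil library 3 those 2 lists were at -0.10 and -0.12, against 0.04 to 0.12 in the other corn oil libraries. The 9 dentate markers were at -0.42. Below their corn oil mean there were 6 of 10 CA1 genes, 12 of 13 CA2 and CA3 genes and 7 of 9 markers. The pyramidal lists were not uniform. Of the CA1 list 6 of 10 genes were lowest in BBP library 1. Ccn3, a secreted matrix protein gene, was not among these 6. It had 28.2 FPKM in BBP library 2, 28.5 in BBP library 1 and at least 38.7 elsewhere. Mpped1 stayed between 44.9 and 51.4 FPKM. Its BBP values all lay above its corn oil values, and such separated groups made up 9.65% of all tested genes. Of the CA2 and CA3 list 11 of 13 were lowest in BBP library 1, among them Necab2, a calcium-binding protein gene, with 24.8 FPKM there and 42.4 to 48.6 in the others. The list of 9 dentate markers lay below the CA1 list by 0.19 in BBP library 1 and by 0.32 in corn oil library 3. It lay above the CA1 list by 0.41 in BBP library 2 and by 0.24 in corn oil library 2. By the log2 ratio of summed FPKM, against its corn oil mean, these differences were -0.14 in BBP library 1, -0.12 in corn oil library 3, 0.26 in BBP library 2 and 0.14 in corn oil library 2, so all 4 kept their direction and were smaller.

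By the list median, markers of striatum and isocortex were high in the 2 libraries where the dentate markers were low. The striatal list was at 1.43 in BBP library 1 and 0.36 in corn oil library 3, and between -0.31 and -0.03 in the other 4. The isocortex list was at 1.11 and 0.23 in the same libraries, and between -0.16 and 0.00 in the others. Penk, the proenkephalin gene, was the most abundant striatal marker on that list, with 12.4 to 18.6 FPKM in most libraries but 42.5 in corn oil library 3 and 72.1 in BBP library 1. Ppp1r1b, a phosphatase inhibitor gene of striatal neurons, had 51.4 and 26.0 in those libraries and 15.7 to 17.2 in the others. Lamp5, a marker of cortical neurons, had 64.5 and 20.7, and 14.6 to 16.6 in the others. Of the striatal list 14 of 15 genes were highest in BBP library 1, and the exception, Lrrc10b, was lowest there at 12.3 FPKM and next lowest in corn oil library 3 at 15.7. Of the isocortex list 9 of 14 were highest in BBP library 1, and 3 were lowest there, Fezf2 at 11.1, Etv1 at 5.95 and Tshz2 at 4.16 FPKM. These 4 exceptions were named after their values were seen. The share of all tested genes that were highest in BBP library 1 was not counted. No gene of either list was at 0 in all libraries, and the part of these cells in the marker levels was not tested. The choroid plexus list was also highest in corn oil library 3, at 0.67, but stood at -0.59 in BBP library 1. Oligodendrocyte markers stood at 0.53 and 0.57 in BBP libraries 1 and 2, where the dentate markers were at their lowest and highest, so these 2 lists did not move as mirror images. Mbp, the myelin basic protein gene, had 320 and 335 FPKM there and 188 to 253 in the others. Astrocyte markers lay between -0.07 and 0.18, microglial markers between -0.07 and 0.12, and thalamic and habenular markers between -0.55 and 0.35, the last highest in corn oil library 3.

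**Figure D4:**
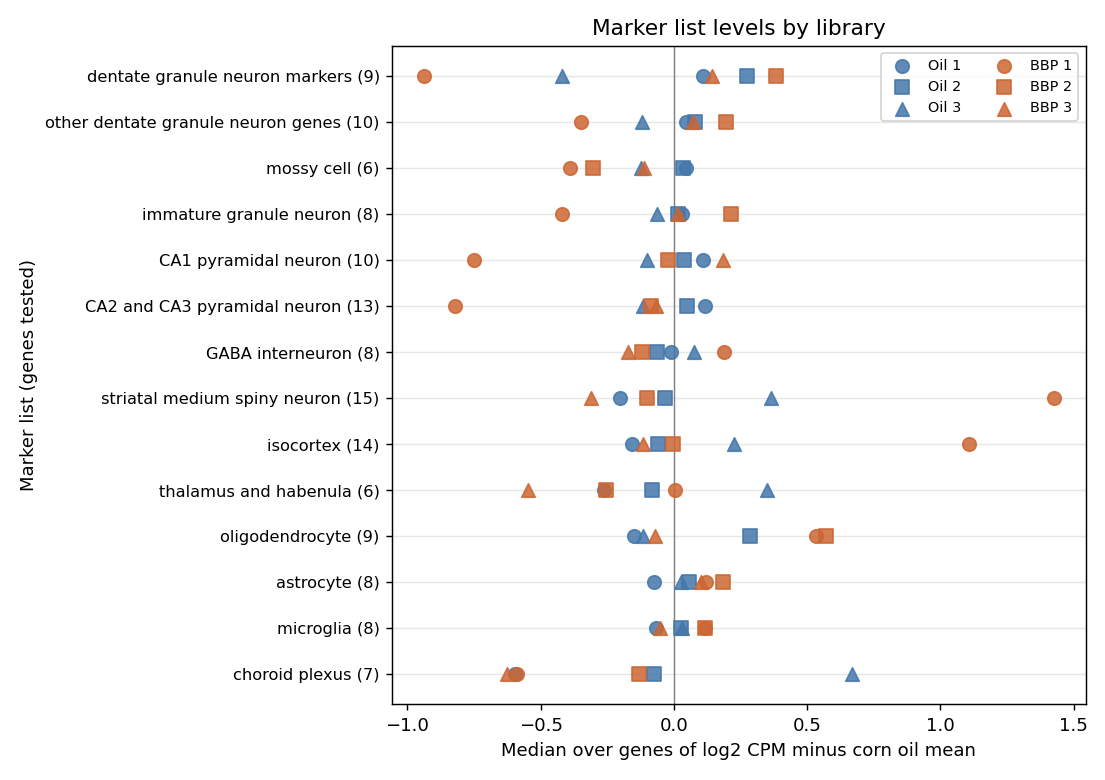
Median over the tested genes of each marker list of log2 CPM minus the corn oil mean (horizontal axis), 1 point per library, with corn oil in blue and BBP in orange. The dentate marker, CA1, and CA2 and CA3 lists are lowest in BBP library 1, between -0.94 and -0.75. The other dentate genes are also lowest there, at -0.35, and the striatal and isocortex lists are highest, at 1.43 and 1.11. Corn oil library 3 is at -0.42 for the dentate markers, -0.12 for the other dentate genes, and -0.10 and -0.12 for the CA lists.

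Other cells of the dentate gyrus were less uniform. Of 6 mossy cell markers, 4 were lowest in BBP library 1. Calb2, the calretinin gene, present in mossy cells, immature granule neurons and interneurons, had 20.9, 23.0 and 20.4 FPKM in corn oil and 9.71, 13.9 and 18.2 in BBP. All BBP values were below all corn oil values (log2 fold change -0.60 ± 0.20 (SE), edgeR adjusted p = 0.953). Groups do not overlap in FPKM, in either direction, for 9.65% of all tested genes. The pattern of Calb2 differed from that of Prox1 in that BBP library 2 was low too. Of 8 markers of immature granule neurons, 4 were positive and 4 negative, with a median of -0.01. Neurod1, which drives granule neuron differentiation, ranged from 6.85 to 9.26 FPKM but was at 4.39 in BBP library 1. Sox4, a factor of newborn neurons, stayed between 1.88 and 2.37 FPKM. Every BBP value of Sox4 lay above every corn oil value, again as in 9.65% of all tested genes. GABA interneuron markers lay between -0.17 and 0.07 except in BBP library 1, where they were at 0.19.

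The transcription factors that act with Prox1 in granule neuron fate gave a mixed picture. Of 12 such genes, 8 were positive and 4 negative in BBP, with 0 passing the test and a median of 0.07, and 7 were lowest in BBP library 1. Zbtb20, a repressor needed for hippocampal identity, had 4.86, 5.37 and 3.54 FPKM in corn oil and 2.28, 6.42 and 5.77 in BBP, the same order as Prox1. Neurod2 and Neurod6, factors of excitatory neurons, had 22.3 and 45.7 FPKM in BBP library 1 and 29.9 and 62.1 in corn oil library 3. In the other 4 libraries they had 37.8 to 43.4 and 79.5 to 121. Tbr1, a factor of cortical excitatory neurons, went the other way, ranging from 9.40 to 11.8 FPKM but reaching 20.9 in BBP library 1. Zbtb20 and Tbr1 were named here after their values were seen.

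Among the synaptic partners of C1ql2, the paralogue C1ql3 had 23.6, 20.8 and 19.8 FPKM in corn oil and 13.9, 17.4 and 25.1 in BBP, so that it was lowest in BBP library 1 and next lowest in BBP library 2. Grik5, a kainate receptor subunit gene, stayed between 33.7 and 37.7 FPKM. Of 7 tested genes of this group, 3 were positive and 4 negative with a median of -0.08, and 0 passed. Pkp2, which encodes plakophilin 2, the armadillo protein that binds desmoplakin in desmosomes, had 6.96, 6.38 and 4.45 FPKM in corn oil and 2.35, 6.52 and 7.55 in BBP. The order of its libraries matched that of Dsp at both ends, while its relative Pkp4 stayed between 35.9 and 44.5. Of 6 tested desmosomal genes, 3 were positive and 3 negative, with 0 passing.

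The families of Tdo2, Trpc6, Plk5, Calb1 and Il16 showed no gene past the test. Of 7 tested genes of tryptophan breakdown, 4 were positive and 3 negative, and Kyat1, a kynurenine aminotransferase gene and the most abundant, stayed between 3.73 and 4.50 FPKM in all libraries. Of 5 other canonical transient receptor potential channel genes, 2 were positive and 3 negative, among them Trpc4, at 4.08 to 6.19 FPKM in 5 libraries and at 2.51 in BBP library 1. Plk2, an activity-regulated polo-like kinase gene, stood at 33.1 to 40.3. Of 6 calcium-binding protein genes, 2 were positive and 4 negative with a median of -0.25, and Hpcal4, a neuronal calcium sensor gene, ranged from 131 to 156 FPKM. Of 3 genes tied to interleukin-16, 2 were positive and 1 negative, and Cd9, a tetraspanin gene, stayed between 12.7 and 14.7.

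The genes whose profile lay nearest to the mean profile of the 9 markers were Raver2, Cebpb, Tnxb, Neurod2, Gria1 and Doc2b. Nearness was the root mean square difference of log2(FPKM + 0.1), centred on each gene's mean over the 6 libraries, among 11549 named genes with a mean of at least 1 FPKM. It was 0.031 for Raver2 and 0.055 for Doc2b, and for the markers themselves it ran from 0.16 for Tdo2 to 0.39 for Dsp. Gria1, an AMPA receptor subunit gene, had 128, 124 and 99.7 FPKM in corn oil and 65.7, 134 and 130 in BBP. Raver2 had 7.19, 7.72 and 5.91 in corn oil and 4.13, 8.08 and 7.99 in BBP. Over 6 libraries many genes can lie near any profile, and the measure is a description.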

How the data were processed

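Per the file headers, the deposited table holds estimated counts and FPKM for each gene and library, as made by the authors. Tools listed, without roles, in the submitters' processing notes are HISAT2 2.2.1, StringTie 2.1.6, UMI-tools, cutadapt 1.9, edgeR and DESeq2, and the build is mm10. How counts were made and with which strand setting is not given in the sources used here. Genes on the opposite strand overlap Prox1, Dsp, Trpc6, Pdzd2 and Il16, so their values are uncertain where reads were not split by strand. Deposited FPKM was taken unchanged. Deposited counts of 4 were more frequent than 3 or 5 in each library, from which 4 counts per fragment were assumed. Summed counts were 62477604 to 68422361 per library.

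All 6 libraries were fitted with edgeR 4.0.16 in R 4.3.3 (TMM, filterByExpr, quasi-likelihood test with treatment alone, adjusted p under 0.05 over 20428 genes). Each standard error was derived from the fold change and its F statistic. Library levels are log2 CPM (prior count 2). Alternatives used limma 3.58.1, DESeq2 1.42.0, other filters and scalings, and each library left out. The fits were tested on simulated data. Members and lists were chosen with earlier results of these data known, so no list was tested as a set. The rule for named genes took all members, the 2 most abundant genes of each list, any called gene and the 6 nearest profiles, of which not all are described. Other list genes are examples picked after their values were seen. Gene coordinates were identical in GENCODE M21 for all 9 members. Upstream sequences are from RefSeq (GRCm38.p6).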

Additional observations from a re-analysis of the deposited data

How the results depend on the processing

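No alternative called a member. The count of called genes was 0 in edgeR with all libraries and under every other alternative with all libraries except DESeq2, which called 3; with 1 library left out it ran from 0 to 3. Deviations of same-numbered libraries from their group means had correlations of -0.08, 0.08 and -0.10. Those of differently numbered libraries ran from -0.07 to 0.15. The labels do not say whether equal numbers mark a shared batch. With the replicate block the count was 0 and the median of the members -0.15. The median of the members ran from -0.32 to 0.25 over the fits without 1 library each. Over these fits the log2 fold change of Prox1 ran from -0.17 to 0.52, of Dsp from -0.32 to 0.42, of C1ql2 from -0.38 to 0.25, of Tdo2 from -0.45 to 0.25, of Trpc6 from -0.10 to 0.18 and of Il16 from -0.40 to 0.29, each with both signs, while Plk5, Calb1 and Pdzd2 kept their sign in all 14 alternative fits. With summed FPKM in place of list medians, the dentate level against the CA2 and CA3 list was -0.013 in corn oil library 3 (-0.30 by medians) and 0.30 in BBP library 1 (-0.12 by medians), so the direction turned in BBP library 1 only; this alternative replaces both the log2 CPM scale and the median, and the cause was not tested. Without Calb1, or on the FPKM scale, the level of the markers in each library moved by less than the SD between corn oil libraries.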
